A study of Mus musculus with 23 samples.

Results

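Of 5 matrix genes, 3 were higher in lungs given organic dust than in lungs given its vehicle, and the 2 of the basement membrane zone were not. Col3a1, Fn1 and Tnc, which encode type III collagen, fibronectin and tenascin C of interstitial and repair matrix, were set beside Lamb2 and Col17a1, which encode the laminin beta 2 chain and type XVII collagen of the basement membrane zone. These 5 genes were picked by name from the 754 genes of a NanoString mouse myeloid panel, and each was read in 23 left lungs, each from its own mouse. Per the labels, airways were instilled 14 times with organic dust extract or with its vehicle, PBS, called saline below, and lavage came before removal of the left lobe. By extract code there were 13 dust lungs, from 3 Fat-1 female, 3 Fat-1 male, 4 WT female and 3 WT male mice, and 10 saline lungs, from 2 Fat-1 female, 3 Fat-1 male, 2 WT female and 3 WT male mice. Fat-1 mice carry a Caenorhabditis elegans fatty acid desaturase that makes omega-3 from omega-6 fatty acids, and WT mice lack it. The age, the background strain and the promoter of the transgene are not stated in the labels, and the transgene itself was not analysed here.

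Fibrillar collagens such as type III collagen give interstitial tissue its tensile strength. Fibronectin, a ligand of integrins, and tenascin C, a large glycoprotein of low abundance in resting adult tissue, are laid down early at sites of injury. Laminins form the sheet on which epithelium and endothelium rest, and the laminin beta 2 chain is found in vessel and airway basement membranes. Type XVII collagen is a transmembrane collagen of hemidesmosomes, the junctions that fix basal epithelial cells to their basement membrane. The series asked how lung immune genes respond to chronic dust in the presence of the Fat-1 transgene, and the matrix genes are a small share of that panel.

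Values are normalized counts, in which every lung was multiplied by its own factor and counts under 20 were set to 20, a floor. Recovered totals ran from 264771 to 812429 counts in dust lungs and from 110453 to 793974 in saline lungs, and 66 to 232 genes a lung were at the floor. Col3a1, Fn1, Tnc and Lamb2 were above it in all 23 lungs, and Col17a1 in 14. The codes carry extraction dates of 2 days, called day 2 (5 dust and 6 saline lungs) and day 1 (8 dust and 4 saline lungs), and whether the organ or its RNA was extracted then is not stated. The stage position recorded for each lung took 2 values, read here as cartridges 1 and 2. These nearly followed the days: 9 of 11 lungs of day 2 were on cartridge 2 and 10 of 12 of day 1 on cartridge 1. In 4 lungs the title or characteristics gave another group than the code. The positive control probes stood apart in Fat-1 female dust lung 2 of day 1 and in WT female saline lung 1 of day 2, and Fat-1 male dust lung 1 and WT male saline lung 1, both of day 2, carried a saturation message. Results that turn on any of these lungs are given with and without them.

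The first comparison set dust against saline over both genotypes and sexes. Col3a1, Fn1 and Tnc rose by 1.15 to 1.67 on the log2 scale, while Lamb2 was lower in part of the dust lungs and did not pass the test. Fold changes are on the log2(value + 1) scale, and adjusted p-values are those of limma over 711 genes, with a threshold of 0.05. In that comparison 43.3% of all tested genes were called higher in dust and 9.99% lower, so a rise is common on this panel, and the median gene was at 0.26. In whole tissue, fewer cells of a type and less RNA per cell cannot be told apart.

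Col3a1, the collagen chain of type III fibrils, ran from 2115 to 8072 normalized counts in the 13 dust lungs with a median of 5437, against 1215 to 3150.2 with a median of 1742 in the 10 saline lungs. Of the dust lungs 10 lay above the highest saline lung, and all 13 lay above the saline median. The mean was 5168 ± 2103 in dust and 1872 ± 552 in saline (SD, n = 13 and 10), or 1.33 as a log2 fold change (SE 0.24, adjusted p = 2.72e-04). Within the lungs of day 2 alone it was 1.06 (adjusted p = 0.0864), and within day 1 alone 1.53 (adjusted p = 1.92e-04). With every lung centred on its median over the 470 genes above the floor in all lungs, called median centring, the fold change was 0.93 (adjusted p = 4.77e-04). This centring takes out the shift of those 470 genes, which was larger than the median of 0.26 over the 711 tested genes.

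Fn1, fibronectin, ran from 3782 to 12279.8 normalized counts in dust lungs with a median of 7529.5, against 2282 to 5009 with a median of 3603 in saline lungs. Only WT female dust lung 2 of day 2 did not exceed the highest saline lung. The mean was 8248 ± 2371 in dust and 3608 ± 962 in saline (SD, n = 13 and 10), which is 1.15 on the log2 scale (SE 0.17, adjusted p = 4.96e-05). It was 0.95 within day 2 alone (adjusted p = 0.101) and 1.35 within day 1 alone (adjusted p = 0.00326). After median centring it was 0.76 (adjusted p = 1.52e-04).

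Tnc, tenascin C, had the lowest normalized counts of the 3 and the highest fold change. It ran from 228 to 1565 in dust lungs with a median of 711, against 161 to 327 with a median of 224 in saline lungs. Of the dust lungs 11 lay above the highest saline lung, and the other two, WT female dust lung 2 and Fat-1 female dust lung 1 of day 2, lay between the saline median and the highest saline lung. The mean was 817 ± 449 in dust and 222 ± 50.9 in saline (SD, n = 13 and 10), which is 1.67 on the log2 scale (SE 0.32, adjusted p = 4.33e-04). It was 1.20 within day 2 alone (adjusted p = 0.108) and 1.98 within day 1 alone (adjusted p = 2.68e-04), and 1.28 after median centring (adjusted p = 5.71e-04).

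**Figure D1:**
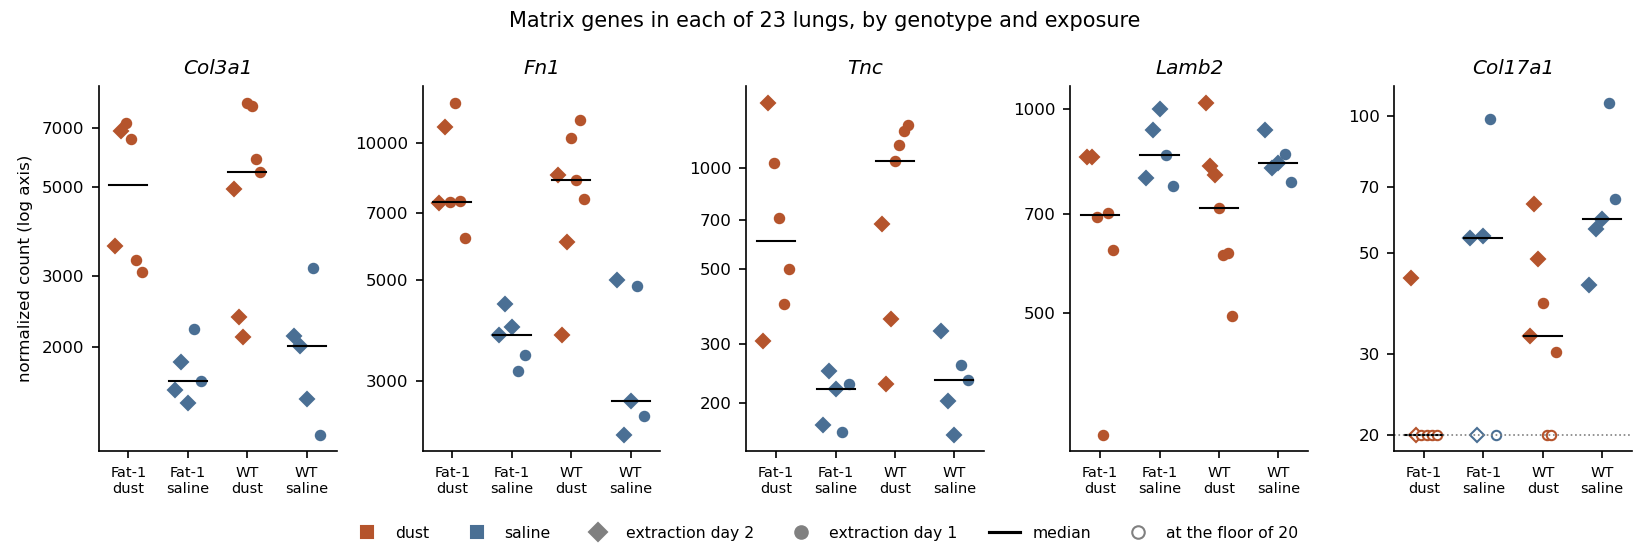
Normalized counts (log axis) of Col3a1, Fn1, Tnc, Lamb2 and Col17a1 in 6 Fat-1 dust, 5 Fat-1 saline, 7 WT dust and 5 WT saline lungs, with diamonds for extraction day 2, circles for day 1, lines for medians and open symbols for lungs at the floor of 20. For Col3a1, Fn1 and Tnc the dust medians lie above the saline medians in both genotypes, and 7 of the 9 open Col17a1 symbols are dust lungs.

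The dust response of these genes was smaller within day 2, where the whole panel had few calls. In day 2 lungs alone 0.141% of genes were called higher in dust and 0.0% lower, against 39.5% and 7.03% in day 1 lungs alone. On the cartridges, Col3a1 was at 1.39 in cartridge 2 lungs alone (adjusted p = 0.0957) and 1.29 in cartridge 1 lungs alone (adjusted p = 0.0526). Fn1 was at 1.16 and 1.26 (adjusted p = 0.0426 and 0.0459), and Tnc at 1.69 and 1.75 (adjusted p = 0.103 and 0.0467), in the same order. These fold changes were thus close to those over all lungs on each cartridge, in fits of 11 and 12 lungs.

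Lamb2 and Col17a1, set here as the basement membrane genes, did not share that rise. Lamb2, the laminin beta 2 chain, ran from 331 to 1023 normalized counts in dust lungs with a median of 703.5, against 771 to 1002 with a median of 845 in saline lungs. Of the dust lungs 8 lay below the lowest saline lung, and these were the 8 dust lungs of day 1. The mean was 702 ± 177 in dust and 857 ± 76.0 in saline (SD, n = 13 and 10), a log2 fold change of -0.35 (SE 0.15, 95% interval -0.66 to -0.041), with an adjusted p of 0.0534 that missed the threshold. It was -0.036 within day 2 alone (adjusted p = 0.774), -0.49 within day 1 alone (adjusted p = 0.128), and -0.17 and -0.40 in cartridge 2 and cartridge 1 lungs alone (adjusted p = 0.622 and 0.22).

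The call for Lamb2 depended on the scale and on the lungs used. With extraction day as a block Lamb2 was at -0.28 (adjusted p = 0.0792), and without both lungs with odd control probes at -0.23 (adjusted p = 0.1). Scaling by the 20 housekeeping genes of the panel, whose geometric mean was 480 to 569 in dust lungs and 447 to 499.8 in saline lungs, gave -0.49 (adjusted p = 0.0108). Median centring gave -0.74 (adjusted p = 0.00182). Under each of these scalings, as in the deposited values, the direction was lower in dust. Leaving out 1 of 6 lungs in turn also brought the value past the threshold: Fat-1 female dust lung 1 of day 1, Fat-1 male saline lung 1 of day 1, or, of day 2, Fat-1 female dust lung 1, Fat-1 male dust lung 1, WT female dust lung 1 or WT male dust lung 1 (-0.38 to -0.42, adjusted p = 0.0145 to 0.0494).

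Col17a1, the hemidesmosome collagen, was close to the limit of what these lungs could show. It was at the floor in 7 of 13 dust lungs and in 2 of 10 saline lungs, and the measured values ran from 30.3 to 63.95 normalized counts in dust and from 42.6 to 107 in saline. They rest on 25 to 83 recovered counts a lung, and even at 83 counts counting error alone has an SD of 11.0%. Because the floor was set before scaling, a lung at the floor gives only an upper limit, which reached 47.3 in dust and 84.3 in saline. With these lungs at 0 or at their limits, the dust mean lies between 19.9 and 37.2 and the saline mean between 53.8 and 66.3. The upper dust bound is thus under the lower saline bound. These bounds take every measured count as signal, while the highest negative control probe of a lung read 7 to 28 counts. The factors matter too: 33 counts gave 107 in WT female saline lung 1 of day 1 (factor 3.241). In WT female dust lung 1 of day 1, 31 counts gave 38.9 (factor 1.255). The part of background and factors in the gap was not tested.

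On the deposited values, with the floor as it stands, Col17a1 fell in dust, with a log2 fold change of -0.94 and an SE of 0.24 (adjusted p = 0.00381). With the highest floor, 84.3, put into every lung it was -0.070 (adjusted p = 0.159), since only 2 lungs, both saline, exceed that level. Without the 4 lungs with differing labels it was -0.72 (adjusted p = 0.0516). Within day 2 alone it was -0.28 (adjusted p = 0.636) and within day 1 alone -1.38 (adjusted p = 0.00384), and in cartridge 2 and cartridge 1 lungs alone -0.56 and -1.23 (adjusted p = 0.354 and 0.0142).

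**Figure D2:**
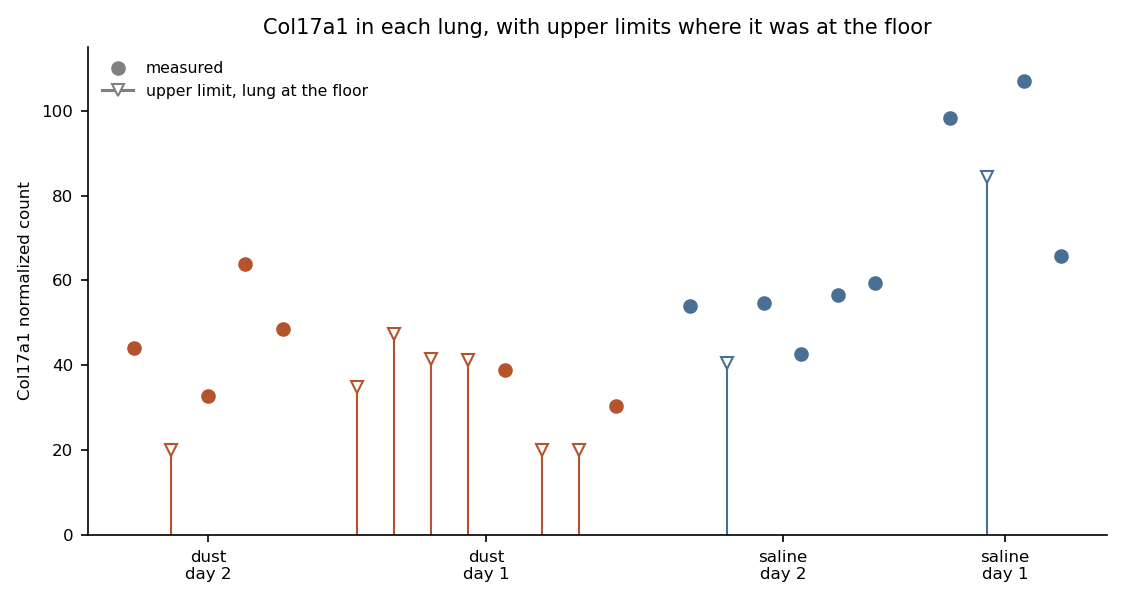
Col17a1 normalized counts in each lung by exposure and extraction day, with filled circles for measured values and open triangles for the upper limit of a lung at the floor, whose value lies anywhere on the line under it. Of the 8 dust lungs of day 1, 6 have only a limit, while 3 of the 4 saline lungs of day 1 were measured between 65.8 and 107.

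A ratio within a lung does not depend on that lung's scale factor, so Lamb2 was used as the denominator for each interstitial gene. The probes differ in efficiency, so such a ratio shows unequal change between lungs and is not a ratio of transcript numbers. Col3a1 over Lamb2 ran from 2.64 to 19.8 with a median of 8.06 in dust lungs, against 1.45 to 3.67 with a median of 2.06 in saline lungs. Fn1 over Lamb2 ran from 4.58 to 37.1 (median 10.7) in dust and from 2.79 to 5.64 (median 4.18) in saline. Tnc over Lamb2 ran from 0.277 to 2.70 (median 1.46) in dust and from 0.191 to 0.351 (median 0.258) in saline. The dust lung exceeded the highest saline ratio in 11, 12 and 12 of 13 lungs for the 3 genes in that order.

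These ratios were lower in dust lungs of day 2, with medians of 4.18 for Col3a1, 8.31 for Fn1 and 0.443 for Tnc, against 10.7, 14.0 and 1.71 in dust lungs of day 1. The saline medians were 1.97, 4.34 and 0.234 on day 2, against 2.36, 4.06 and 0.297 on day 1. The highest Col3a1 and Fn1 ratios belonged to Fat-1 female dust lung 2 of day 1, whose Lamb2 was the lowest of all lungs and whose control probes stood apart. Without that lung the highest dust ratios were 13.01 for Col3a1 and 18.3 for Fn1.

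**Figure D3:**
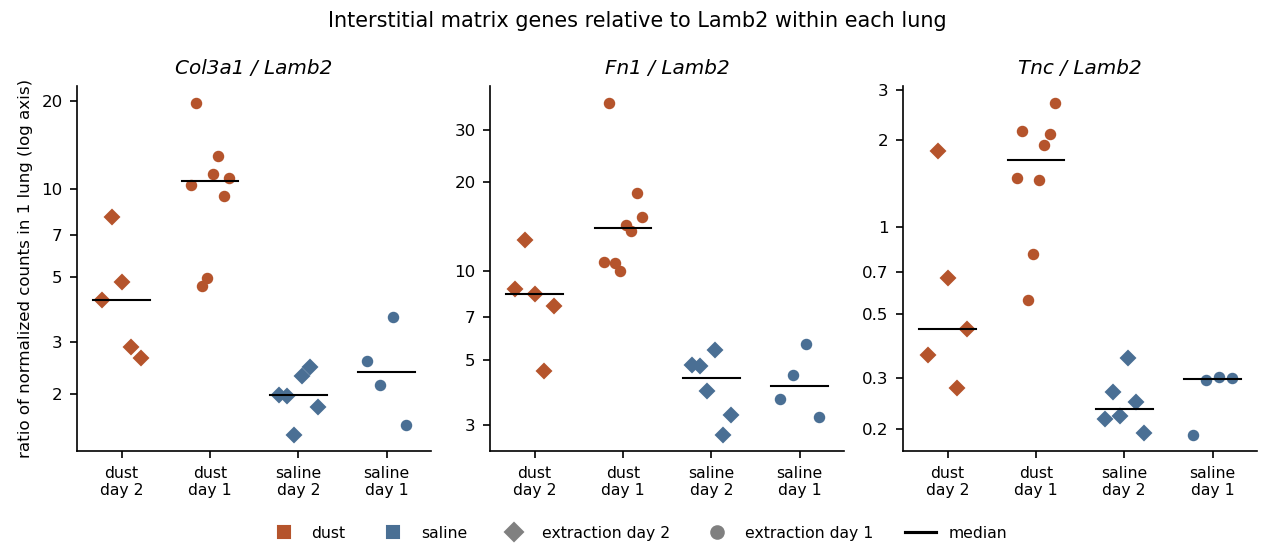
Ratio of Col3a1, Fn1 and Tnc to Lamb2 normalized counts within each lung (log axis) for 5 dust lungs of day 2, 8 dust lungs of day 1, 6 saline lungs of day 2 and 4 saline lungs of day 1, with lines for medians. The dust lungs of day 1 have the highest medians in all 3 panels, at 10.7, 14.0 and 1.71, and overlap with the dust lungs of day 2.

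The second question was whether the Fat-1 transgene altered the matrix response to dust, and in these lungs no difference between genotypes passed the test. Over the panel 0.0% of genes were called for a difference of the dust response between genotypes, 0.0% for Fat-1 against WT in dust lungs, 0.0% for Fat-1 against WT in saline lungs and 0.0% for a difference of the dust response between sexes. At an unadjusted p under 0.05 limma gave 21, 22, 10 and 14 of 711 genes in the same order. Within each genotype the panel-wide share was 32.2% higher and 5.91% lower in dust for Fat-1, and 30.7% higher and 4.64% lower for WT.

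Col3a1 ran from 3072 to 7178 normalized counts with a median of 5054 in the 6 Fat-1 dust lungs, against 1450.1, 1563, 1652, 1833 and 2217 in the 5 Fat-1 saline lungs. In WT it ran from 2115 to 8072 with a median of 5437 in the 7 dust lungs, against 1215, 1491, 2015, 2135 and 3150.2 in the 5 saline lungs. The groups did not overlap in Fat-1, and in WT 2 dust lungs of day 2 lay within the saline range. The log2 fold change was 1.44 in Fat-1 (SE 0.35, adjusted p = 0.00629) and 1.21 in WT (SE 0.34, adjusted p = 0.0121), a difference of 0.24 with a 95% interval of -0.79 to 1.26 (adjusted p = 0.999).

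Fn1 ran from 6191 to 12279.8 normalized counts in Fat-1 dust lungs and from 3156 to 4428 in Fat-1 saline lungs, and from 3782 to 11234 in WT dust lungs and 2282 to 5009 in WT saline lungs. Its fold change was 1.18 in Fat-1 (adjusted p = 0.00250) and 1.12 in WT (adjusted p = 0.00218), a difference of 0.063 (95% interval -0.65 to 0.78). Tnc ran from 306 to 1565 in Fat-1 dust lungs and from 164 to 249.9 in Fat-1 saline lungs, and from 228 to 1341 in WT dust lungs and 161 to 327 in WT saline lungs. Its fold change was 1.69 in Fat-1 (adjusted p = 0.0112) and 1.64 in WT (adjusted p = 0.0110), a difference of 0.051 (95% interval -1.32 to 1.42). Fn1 and Tnc transcripts thus rose in both genotypes, and the intervals of the differences run to both sides of 0. For both genes, as for Col3a1, no Fat-1 dust lung overlapped a Fat-1 saline lung, a pattern that 19.0% of the panel had in that direction and 4.08% in the other.

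Lamb2 averaged 675 ± 192 in Fat-1 dust and 871 ± 97.1 in Fat-1 saline lungs (SD, n = 6 and 5), and 726 ± 175 in WT dust and 844 ± 56.2 in WT saline lungs (n = 7 and 5). Neither value passed the test, at -0.41 in Fat-1 (adjusted p = 0.13) and -0.29 in WT (adjusted p = 0.291), and their difference was -0.12 (95% interval -0.74 to 0.49). With the dust lung of odd control probes left out, the Fat-1 dust mean was 743 ± 103 (SD, n = 5). Both values passed after median centring, at -0.80 in Fat-1 (adjusted p = 0.0195) and -0.68 in WT (adjusted p = 0.0385), and with array weights, at -0.35 (adjusted p = 0.0145) and -0.40 (adjusted p = 0.0365). The Fat-1 value also passed when lung 1 of the Fat-1 female dust group of day 2 was left out (-0.55, adjusted p = 0.0328), and ran from -0.55 to -0.21 in leave-one-out fits. Col17a1 was at the floor in 5 of 6 Fat-1 dust lungs and 2 of 5 Fat-1 saline lungs, and in 2 of 7 WT dust lungs and 0 of 5 WT saline lungs. It was at -0.96 in Fat-1 (adjusted p = 0.0403) and -0.92 in WT (adjusted p = 0.0439), and in leave-one-out fits these calls stayed in 16 and 11 of 23. Between Fat-1 and WT it was at -0.52 in dust lungs (95% interval -1.20 to 0.15) and -0.49 in saline lungs (-1.27 to 0.29).

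Within a genotype the calls did not hold in day 2 lungs alone, where Col3a1, Fn1 and Tnc were at 1.63, 1.17 and 1.78 in Fat-1 (adjusted p = 0.101 to 0.144) and at 0.48, 0.73 and 0.62 in WT (adjusted p = 0.409 to 0.585). In day 1 lungs alone they were at 1.29, 1.29 and 1.67 in Fat-1 (adjusted p = 0.00258 to 0.0239) and at 1.78, 1.40 and 2.29 in WT (adjusted p = 5.15e-04 to 0.0132). The Fat-1 minus WT differences in that order were 1.14, 0.44 and 1.16 in day 2 lungs alone (adjusted p = 0.488 to 0.784) and -0.49, -0.11 and -0.62 in day 1 lungs alone (adjusted p = 0.341 to 0.952).

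Several of the calls within a genotype were near the threshold. Without the 4 lungs with differing labels, 3 of them coded Fat-1, the Fat-1 values were 1.61 for Col3a1 (adjusted p = 0.05), 1.14 for Fn1 (adjusted p = 0.0501) and 1.85 for Tnc (adjusted p = 0.0682). Without WT female saline lung 1 of day 2, Col3a1 in WT was at 1.07 (adjusted p = 0.0522), and without WT female saline lung 1 of day 1, Tnc in WT was at 1.56 (adjusted p = 0.0569). The sexes gave intervals that include 0 for all 5 genes, with a female minus male response of -0.07 for Col3a1 (-1.10 to 0.95), -0.40 for Fn1 (-1.12 to 0.31), -0.30 for Tnc (-1.67 to 1.06), -0.0041 for Lamb2 (-0.62 to 0.61) and -0.46 for Col17a1 (-1.49 to 0.56).

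**Figure D4:**
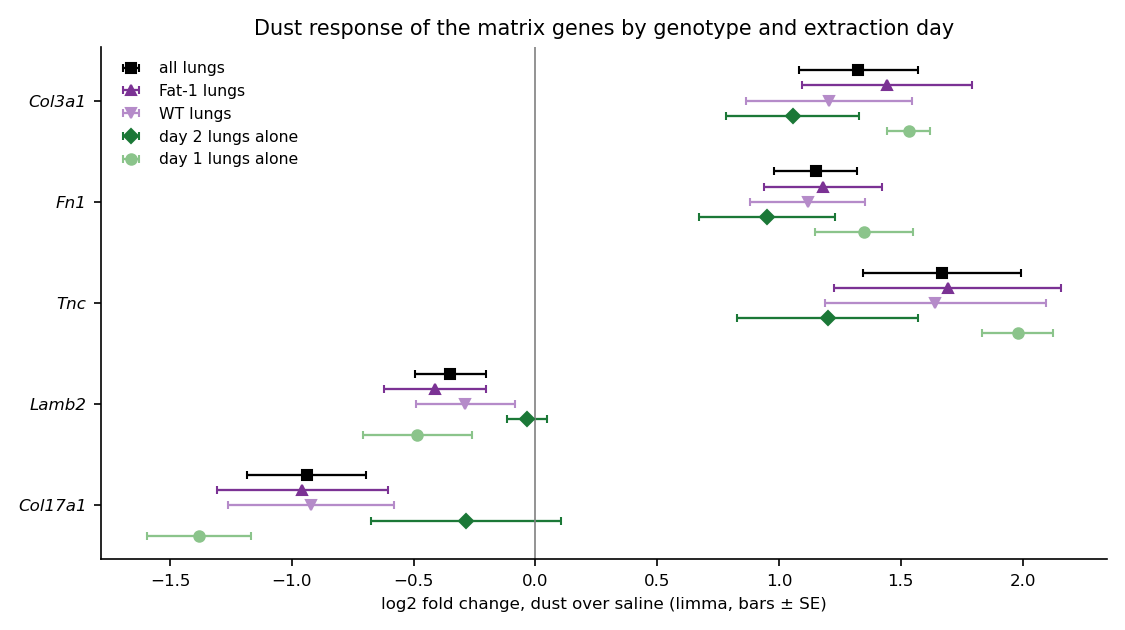
Log2 fold change of dust over saline with SE bars from limma for each gene over all 23 lungs, in Fat-1 lungs, in WT lungs, and in lungs of day 2 and of day 1 alone. Col3a1, Fn1 and Tnc lie right of 0 in every row, and Lamb2 and Col17a1 lie left of it, with Lamb2 at -0.036 in day 2 lungs alone.

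Extraction day split the dust lungs most clearly for Lamb2. It was 801, 826, 849.8, 850.1 and 1023 normalized counts in the 5 dust lungs of day 2, against 331 to 715 with a median of 616 in the 8 dust lungs of day 1. Every dust lung of day 2 was above every dust lung of day 1, as for 0.563% of the genes in that direction and 1.27% in the other. In saline lungs it was 790.2, 819, 832, 931, 933 and 1002 on day 2, against 771, 781, 857 and 859 on day 1, and these groups overlapped.

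In the dust lungs Lamb2 rose by 0.57 on day 2 relative to day 1 (SE 0.15, 95% interval 0.25 to 0.89, adjusted p = 0.0237), where 1.97% of the panel was called higher and 13.2% lower. In saline lungs the value was 0.11 (adjusted p = 0.9995), with 0.141% of the panel called. The difference of the dust response between the days was 0.46 (95% interval -0.032 to 0.95, adjusted p = 0.255), with 1.69% of the panel called, so a day effect particular to dust lungs was not shown. Among the lungs on the other cartridge than most of their day, Lamb2 was 826 in the dust lung of day 2 on cartridge 1, against 496 and 609 in the dust lungs of day 1 on cartridge 2, and with cartridge as a block the day value was 0.57 (adjusted p = 0.0261).

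The call was lost without 1 of 3 dust lungs of day 2: 0.59 without WT female lung 2 (adjusted p = 0.0618), 0.57 without Fat-1 female lung 1 (0.0592) and 0.51 without WT female lung 1 (0.0593). Without both lungs whose control probes stood apart it was 0.44 (adjusted p = 0.0157). Relative to saline of the same day, all 8 dust lungs of day 1 were under the lowest of 4 saline lungs, as for 5.34% of the panel, and 26.9% of the panel lay wholly above. Fn1 and Tnc were among those wholly above.

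**Figure D5:**
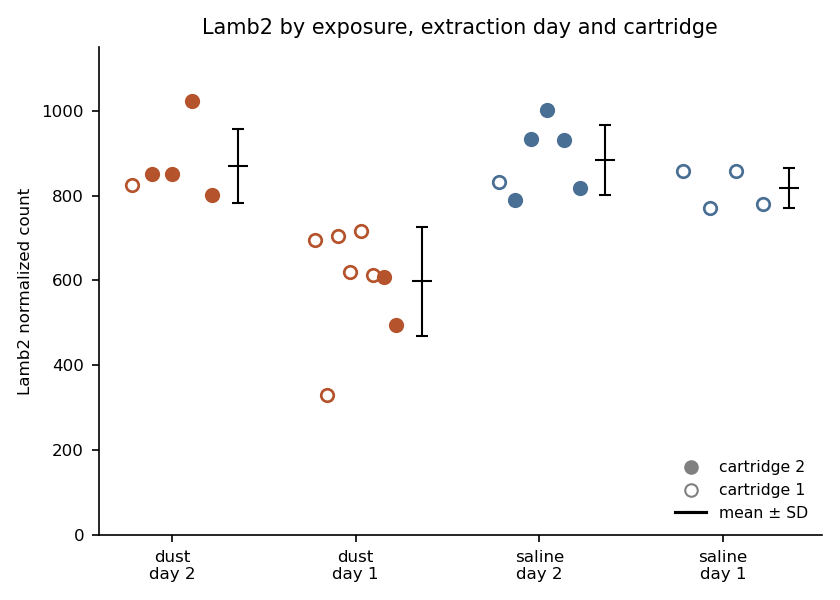
Lamb2 normalized counts in 5 dust lungs of day 2, 8 dust lungs of day 1, 6 saline lungs of day 2 and 4 saline lungs of day 1, filled for cartridge 2 and open for cartridge 1, with mean ± SD beside each group. All dust lungs of day 1 lie at or under 715, on both cartridges, and all other lungs at or above 771.

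The interstitial genes had the opposite sign between days, without passing the test. Col3a1 was 2115, 2379, 3552, 4923 and 6854 normalized counts in the dust lungs of day 2, against 3072 to 8072 with a median of 6197 in those of day 1, a log2 difference of -0.69 (adjusted p = 0.0825). Tnc was 228, 306, 355, 681 and 1565 in the dust lungs of day 2, against 393 to 1341 with a median of 1039.5 in those of day 1 (-0.85, adjusted p = 0.119). Fn1 was 3782, 6068, 7375, 8503 and 10831 in the dust lungs of day 2, against 6191 to 12279.8 with a median of 7919 in those of day 1 (-0.32, adjusted p = 0.334). Col17a1 was at 0.65 (adjusted p = 0.124).

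For Col3a1 and Tnc 1 lung carried much of the spread on day 2. Fat-1 male dust lung 1 of day 2, with a saturation message, was the highest of the 5 for both, and without it Col3a1 was at -1.09 (adjusted p = 0.0014) and Tnc at -1.43 (adjusted p = 0.00171). Without it the dust response differed between days by -1.04 for Col3a1 (adjusted p = 0.0323) and -1.45 for Tnc (adjusted p = 0.0286). With it those differences were -0.60 (adjusted p = 0.372) and -0.82 (adjusted p = 0.384). Col3a1 between days also passed without Fat-1 male dust lung 2 of day 1 (-0.77, adjusted p = 0.0496). What else differed between the days is not stated in the labels.

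Among the 13 dust lungs the interstitial genes varied together on the log2 scale, over 12 relations tested by permutation. Col3a1 and Tnc had a Pearson r of 0.871 (p = 2.2e-04, adjusted p = 0.00264) and a Spearman rho of 0.742 (adjusted p = 0.0416), and r was 0.81 without the 2 lungs farthest from the Col3a1 median. Col3a1 and Fn1 had r = 0.769 (p = 0.00144, adjusted p = 0.00864), rho = 0.698 (adjusted p = 0.0416) and 0.627 without 2 lungs. Fn1 and Tnc had r = 0.72 (p = 0.00396, adjusted p = 0.0158), rho = 0.72 (adjusted p = 0.0416) and 0.701 without 2 lungs. Within the 8 dust lungs of day 1 these r were 0.78, 0.574 and 0.351, and the 5 dust lungs of day 2 are too few for a value.

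The relations with Lamb2 did not pass, at r = -0.331 with Col3a1, -0.383 with Fn1 and -0.294 with Tnc (adjusted p = 0.371, 0.329 and 0.413). With Fn1 it was -0.11 without the Fat-1 female dust lung of odd control probes and 0.08 without the 2 lungs farthest from the Fn1 median. With housekeeping scaling the 3 were -0.544, -0.535 and -0.516, values that were not tested. Among the 10 saline lungs r ran from 0.193 to 0.594 over the 6 pairs, and none passed (adjusted p = 0.206 to 0.594). All values of a lung share its scale factor. Col17a1 was left out of these relations because of the floor.

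By Pearson r of log2 values over the 13 dust lungs, among the other genes above the floor in every lung (470 with the members), the pattern of Col3a1 was most like C1qa (0.907), Ccl5 (0.902) and C3ar1 (0.887). C1qa is a chain of complement C1q made by macrophages, Ccl5 a chemokine, and C3ar1 the receptor for complement C3a. Fn1 was most like Cd84 (0.944), Csf2ra (0.922), a chain of the receptor for granulocyte-macrophage colony-stimulating factor, and Znrf2 (0.921). Tnc was most like Selplg (0.932), the ligand of P-selectin on leukocytes, Vasp (0.929), which acts on actin filaments, and Fem1c (0.926). Lamb2 was most like Ddr2 (0.981), a receptor for fibrillar collagen, Dpp4 (0.948) and Tspan8 (0.943). In the 10 saline lungs the same r were 0.739, 0.458 and 0.285 for Col3a1, 0.563, 0.745 and -0.512 for Fn1, 0.201, 0.18 and -0.29 for Tnc, and 0.051, -0.313 and -0.481 for Lamb2. With the Fat-1 female dust lung of odd control probes left out, the r of Lamb2 with these genes in dust were 0.957, 0.887 and 0.864.

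Col3a1 and Tnc varied together over the dust lungs (r = 0.871), though C1qa, Ccl5 and C3ar1 were closer to Col3a1 (0.887 to 0.907). The 250 bases before a RefSeq start of Col3a1 and of Tnc are shown beside those of Lamb2. They are from the RefSeq promoter table of GRCm38.p6, in which 4 of the 5 genes were matched and Fn1 was not. Capitals mark matches, on either strand, to TATAAA (the TATA box), TGANTCA (AP-1), CAGAC (the SMAD element, whose reverse complement is GTCTG) or CCAAT (the CCAAT box).
Col3a1, chr1:45311288-45311537, plus strand: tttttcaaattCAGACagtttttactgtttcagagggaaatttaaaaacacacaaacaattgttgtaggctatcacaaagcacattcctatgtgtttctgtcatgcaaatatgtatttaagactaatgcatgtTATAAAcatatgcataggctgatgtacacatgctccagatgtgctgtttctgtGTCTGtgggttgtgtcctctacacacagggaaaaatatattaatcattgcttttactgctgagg
Tnc, chr4:64047016-64047265, minus strand: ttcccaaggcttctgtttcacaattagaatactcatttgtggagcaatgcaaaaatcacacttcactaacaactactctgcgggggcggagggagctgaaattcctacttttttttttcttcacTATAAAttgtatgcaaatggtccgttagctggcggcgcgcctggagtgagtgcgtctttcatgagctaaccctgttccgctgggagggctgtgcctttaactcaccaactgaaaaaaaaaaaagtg
Lamb2, chr9:108479612-108479861, plus strand: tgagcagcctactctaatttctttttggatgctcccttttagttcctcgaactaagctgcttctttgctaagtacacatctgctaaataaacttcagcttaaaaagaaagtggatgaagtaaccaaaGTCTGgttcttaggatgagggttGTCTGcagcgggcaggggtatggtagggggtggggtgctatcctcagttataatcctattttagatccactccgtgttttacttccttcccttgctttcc
Col3a1 held 1 TATAAA that begins 117 bases before the start and 2 SMAD elements at 239 and 64 bases, Tnc held 1 TATAAA at 126 bases, and Lamb2 held 2 SMAD elements at 123 and 100 bases. The Lamb2 window ends at a listed start 15 bases into the annotated gene, and a second listed Tnc window, 79 bases downstream, holds 1 SMAD element too. TATAAA was in 12.4% of 32851 such windows, CAGAC in 42.2%, CCAAT in 33.8% and TGANTCA in 6.7%. A match is a string of letters and no evidence of binding. In the same assembly Col3a1 spans chr1:45311538-45349706, Fn1 chr1:71585473-71653280, Tnc chr4:63959785-64047015, Lamb2 chr9:108479847-108490530 and Col17a1 chr19:47646341-47692042.

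Other matrix genes were few on the panel. Beside the counts of this and the following lists, 43.3% of all tested genes were called higher in dust and 9.99% lower. After median centring 445 of the 711 genes were called, in either direction. Of 6 measured genes of a list of 44, 2 were called higher and 0 lower, with a median log2 fold change of 0.11 beside 0.26 over all genes, while after median centring 1 was higher and 2 lower. Col1a2, a chain of type I collagen, rose to 1263 ± 607 in dust against 611 ± 132 in saline (0.87, adjusted p = 0.00599). Col4a1, a chain of the basement membrane collagen, rose by 0.54 (adjusted p = 0.0198), but was at 0.15 after median centring (adjusted p = 0.352). Hspg2, the basement membrane proteoglycan perlecan, was at 0.082 (-0.31 after median centring, adjusted p = 0.0438). Lamb3, another laminin beta chain, was at 0.045 (-0.34 after median centring, adjusted p = 0.0336). The collagen genes Col4a2 and Col14a1 were called in neither scale. Col4a2 was at 0.13 (-0.26 after median centring, adjusted p = 0.267) and Col14a1 at 0.093 (-0.30 after median centring, adjusted p = 0.197). Of 4 further collagens on the panel, listed after its gene names were read, 2 were at the floor in all lungs. Col15a1 rose by 1.28 (adjusted p = 0.00223), or 0.91 with the highest floor in every lung and 0.89 after median centring (adjusted p = 0.00725). Col12a1 fell by 0.53 (adjusted p = 0.00359), and was at -0.92 after median centring (adjusted p = 1.8e-04). Neither was placed here in the interstitial or the basement membrane set. The split between those sets is thus one of the named members, and whether it holds for these collagens was not tested.

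Among matrix receptors, 4 of 7 measured genes were called higher and 1 lower (median 0.65), and after median centring 4 were higher and 2 lower. Itga5, the integrin chain that pairs with beta 1 to bind fibronectin, rose to 143 ± 53.4 against 59.3 ± 24.1 (1.33, adjusted p = 0.00106; 0.68 with the highest floor), while Itgb1, its partner chain, was at -0.046 (adjusted p = 0.799; -0.44 after median centring, adjusted p = 0.00759). Plaur, the urokinase receptor, rose by 0.87, and Tlr4, for which fibronectin and tenascin C fragments are reported ligands, by 0.65. Cd44, the hyaluronan receptor, was called higher, but 2 of 13 dust lungs and 7 of 10 saline lungs were at the floor, so its fold change is not given. Ddr2 fell by 0.46 (adjusted p = 0.015).

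Of 13 measured matrix proteases and inhibitors 8 were called higher and 1 lower (median 0.88). Mmp12, the macrophage elastase, rose by 3.51 (SE 0.49, adjusted p = 3.58e-05), Ctss, cathepsin S, by 1.85, Mmp19 by 1.35 and Adam8 by 1.55. Timp3, an inhibitor of metalloproteases bound to matrix and the 1 gene called lower, fell by 0.58 (adjusted p = 0.00202) and was named after its values were seen. Of 21 measured signals that act on matrix-producing cells, 7 were called higher and 4 lower (median 0.035), beside 43.3% and 9.99% of the panel. After median centring 7 of these signals were higher and 10 lower. Tgfb1, the main inducer of matrix genes in fibroblasts, rose by 0.74 (adjusted p = 2.77e-04) and Il1b by 2.95, while Bmp6 fell by 1.11. Igf1 was called higher too, with 1 of 13 dust lungs and 8 of 10 saline lungs at the floor, and its fold change is not given.

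Markers of other cell types moved with exposure, and their part in the matrix values was not tested. Of 12 macrophage and monocyte markers 10 were called higher. The summed counts of all 12 were 18843 to 56413 in dust lungs against 13727 to 28299 in saline lungs, and Chil3 alone averaged 21363 in dust and 8447 in saline. Of 10 neutrophil markers 7 were called higher, with sums of 1774 to 41404 in dust and 1651 to 3538 in saline, while Elane was at the floor in all 23 lungs and Mpo in 12 of 13 dust lungs. All 4 endothelial markers fell, with sums of 2026 to 8257 in dust and 7844 to 10225 in saline, and 2 of them were called higher in dust lungs of day 2 than of day 1, as Lamb2 was. Their sums were 5499 to 8257 in the dust lungs of day 2 and 2026 to 5940 in those of day 1. In the same contrast 6 neutrophil markers were called lower on day 2, with sums of 1774 to 17741 against 6445 to 41404 on day 1, and 1 fibroblast marker was called higher.

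Of 3 measured fibroblast and smooth muscle markers 1 was called higher, Col1a2, itself a matrix gene, while the platelet-derived growth factor receptors Pdgfra and Pdgfrb were at -0.25 (adjusted p = 0.145) and -0.21 (adjusted p = 0.1). After median centring Pdgfra and Pdgfrb were called lower, at -0.64 (adjusted p = 0.00233) and -0.60 (adjusted p = 3.66e-04). The sums of the 3 markers ran from 1669 to 4342 in dust and from 1941 to 2395 in saline, with the highest in Fat-1 male dust lung 1 of day 2. Of 2 epithelial markers Lamp3 was called higher at 0.29 (adjusted p = 0.0378) and Cdh1 was at -0.0015 (adjusted p = 0.99). After median centring Lamp3 was at -0.10 (adjusted p = 0.534) and Cdh1 was called lower at -0.39 (adjusted p = 0.00616), so both calls depend on the scale. The 1 B cell marker was not called (-0.011), and no T cell marker of the list was measured.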

How the data were processed

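RNA of 23 left lungs was counted on a NanoString nCounter myeloid panel of 754 genes, 20 of them housekeeping, with 14 control probes. The deposited values are a signal, probe counts multiplied by 1 factor a lung (0.682 to 4.21, from the spacing of the values, 100.0% whole multiples within 0.1 steps). Per the file headers and the values, counts under 20 were set to 20. The software and genes behind the factor were not given in the sources used here. Counts under the floor are hidden, so no count model was fitted. Lungs were grouped by extract code into 8 groups of genotype, sex and exposure.

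Log2(value + 1) was fitted with limma 3.58.1 in R 4.3.3 on 8 group means, and for days on 4 means of exposure and day with genotype and sex added, two-sided, with Benjamini-Hochberg adjustment over 711 genes above the floor in at least 1 lung. On simulated data for dust against saline over 711 genes, 94% of genes changed by 1 on the log2 scale and 100% changed by 2 were recovered, and 1.17% of unchanged genes were called. The simulation had independent normal noise for each gene, with no floor, no shared variation between genes and no day or cartridge effect. These rates check the fit and need not hold for the lungs. Correlations used 100000 permutations. The members and lists were chosen with earlier results of these data known. Named were the 5 members, the 3 genes most like each in dust lungs, and up to 4 genes per list by the smallest p, plus those said to be named later and list members given as not called. Replicate numbers did not pair lungs: deviations of lungs sharing day and number correlated at -0.446 to 0.738 (median -0.01, 65 pairs).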

Additional observations from a re-analysis of the deposited data

Results flagged for a closer look

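Of 50 sets of 4 to 10 lungs examined for a lung far from the others by Dixon's ratio, 3 held one, and chance flags about 1 in 20 such groups. Col3a1 was 3150.2 normalized counts in WT female saline lung 1 of day 1, the highest of 10 saline lungs, with the nearest at 2217. Lamb2 was 1023 in WT female dust lung 1 of day 2, the highest of the 5 dust lungs of that day, with the nearest at 850.1. Col17a1 was 44.2 in Fat-1 female dust lung 1 of day 2, while the other 5 Fat-1 dust lungs were at the floor of 20, which bounds their values and does not measure them.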

How the results depend on the processing

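The members' contrasts were refitted 1965 times under the alternatives, and no called result changed its sign, while 137 values that were not called did. Day 2 lungs alone gave 1.06 for Col3a1, 0.95 for Fn1, 1.20 for Tnc and -0.28 for Col17a1, none past the threshold, and 1 called gene against 379 over all lungs. The alternatives of cartridge 1 alone, cartridge 2 alone and leaving out both lungs with a saturation message were chosen after seeing the data. Cartridge 2 alone lost the calls of Col3a1 (1.39), Tnc (1.69) and Col17a1 (-0.56) and had 28 called genes, and cartridge 1 alone lost that of Col3a1 (1.29) and had 164. These subsets hold fewer lungs. Lamb2 in dust against saline passed with a pseudocount of 20 (-0.34), with only genes above the floor in every lung (-0.35), a common floor (-0.35), housekeeping scaling (-0.49), median centring (-0.74) and array weights (-0.38), and ran from -0.42 to -0.25 with each lung left out. Col17a1 missed it with a common floor (-0.070) and without the 4 lungs with differing labels (-0.72). Between days in dust lungs, Col3a1 passed with cartridge as a block (-0.92), array weights (-0.86) and without both lungs with a saturation message (-1.09), and ran from -1.09 to -0.49 in leave-one-out fits. Tnc passed in the same settings (-1.295, -1.11 and -1.43; leave-one-out -1.43 to -0.56), and Lamb2 ran from 0.44 to 0.62. The genes called between days were 180 with cartridge as a block, 64 without both lungs with odd control probes, 328 with array weights and 224 without the saturated lungs, against 108, and 12 to 238 in leave-one-out fits. The cause of these moves was not tested. With replicate block (day and number), Col3a1 was at 1.18, Fn1 at 1.09, Tnc at 1.46, Lamb2 at -0.15 (adjusted p = 0.296) and Col17a1 at -0.74, with 277 genes called; of these results no call over all lungs changed, and the Col17a1 calls within Fat-1 and within WT were lost. With extraction day as a block, Col3a1, Fn1 and Tnc were at 1.24, 1.13 and 1.57, and Lamb2 at -0.28 (adjusted p = 0.0792). Lamb2 also missed the threshold without both lungs with odd control probes (-0.23, adjusted p = 0.1) and without the 4 lungs with differing labels (-0.31, adjusted p = 0.23). With groups by the characteristics labels it was at -0.31 (adjusted p = 0.122). The floor limits Col17a1, which was read from at most 83 counts, and the panel holds few genes of structural lung cells.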
